A study of Mus musculus with 12 samples.

Results

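Rab proteins are small GTPases of the Ras superfamily that sit on the membranes of vesicles and organelles and direct their budding, movement, docking and fusion. The Rab genes were taken as the probe sets whose single platform symbol was Rab followed by a number and, where present, a letter, with the brightest probe set over all 12 arrays standing for each gene. This gave 59 Rab genes of 18193 genes on the array, measured by 132 probe sets, and 38 of the genes had more than 1 probe set. A total of 56 passed the filter on low values and were tested. Rab3c, Rab9b and Rab39 did not, since their mean lay below the 30th percentile of the arrays in every group, and they are not described further.

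The samples were 12 arrays from mouse pancreas in 3 groups of 4. Acini were freshly isolated exocrine acini, the units that make and secrete digestive enzymes. Ducts were organoids, which are hollow 3-dimensional cultures in Matrigel, grown from native duct fragments. yDucts were organoids that arose from acini of R26-rtTA; tetO-YAP S127A mice. These mice carry the doxycycline-dependent activator rtTA at the Rosa26 locus and an activated YAP, a transcriptional co-activator held in check by Hippo signalling, behind a tetracycline operator, so that doxycycline switches YAP on in any cell that holds both alleles. The yDucts were expanded later without doxycycline. Both kinds of organoid were kept in the same medium with B27, N-acetylcysteine, gastrin, EGF, Noggin, FGF10, nicotinamide and R-spondin1. The genotype of the mice behind the Acini and Ducts arrays is not stated in the labels, and the sources used here give neither exact ages nor the number of animals and cultures per array. The labels call the 4 arrays of a group biological replicas. If they share animals or cultures, the p-values measure only the spread between these arrays. Since the Acini arrays hold fresh tissue and the organoid arrays hold cultured cells, cell type and culture cannot be told apart in a comparison with Acini. In RNA from many cells, fewer cells of a type and less RNA per cell cannot be told apart either.

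Acinar cells store enzymes in zymogen granules and release them at the apical membrane on demand. Members of the Rab3, Rab26, Rab27 and Rab37 families are found on secretory granules, and Rab3d in particular is a marker of the zymogen granule membrane. Duct cells hold no zymogen granules. They are polarised epithelial cells that carry channels and receptors to and from their apical and basolateral surfaces, a traffic served by Rab proteins of the recycling endosome such as Rab11 and Rab25.

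The acinar markers went with the labels, and the duct markers did in part. The summed level of 9 acinar markers ran from 16.84 to 16.89 (log2) in Acini, from 6.68 to 6.92 in Ducts and from 6.76 to 6.86 in yDucts, with Cpb1 and Cela2a below the 30th percentile in both organoid groups. Among 6 duct markers, the keratins Krt19 and Krt7 and the adhesion molecule Epcam were higher in both organoid groups, whereas Sox9 and Cftr were called in neither comparison with Acini. Muc1 was not called in Ducts (0.06 ± 0.19) and was lower in yDucts (-0.67 ± 0.19, adjusted p = 0.00656, limma). Acini also held RNA of other pancreatic cells. The summed level of 9 islet markers was 11.9 to 12.6 in Acini and at most 6.77 in either organoid group, that of 6 endothelial markers was 9.93 to 10.6 against at most 6.99, that of 6 stromal markers 11.7 to 12.7 against at most 6.24, and that of 9 immune markers 9.51 to 9.89 against at most 7.98. The low end of the arrays differed as well, since the 30th percentile was 3.72 in Acini, 3.21 in Ducts and 3.20 in yDucts. The 3′ signal of the control transcript Gapdh exceeded its 5′ signal by 1.29 to 1.91 in Acini, against -0.07 to 0.02 in Ducts and -0.17 to -0.12 in yDucts. This excess is a usual measure of RNA integrity. The part of these differences in the results on Rab genes was not tested. All expression values are log2, each difference is log2 ± its standard error (SE) from the fitted model, and calls were made by limma at 0.05 after adjustment over 14990 tested genes. A value compares 1 probe set between groups, never 1 gene with another.

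Between Ducts and Acini, Rab genes of endosomes and of recycling were mostly higher and those of granules lower in the organoids, of which the recycling genes lost this direction in Ducts after cyclic loess. Of the 56 tested Rab genes, 28 were called higher in Ducts, which is 50% against 42.7% of all tested genes, and 13 were called lower, which is 23.2% against 33.1%. The other 15 were not called. A change of 2-fold or more was reached by 21 of the higher and 10 of the lower genes. The median difference was 0.66 over the Rab genes and 0.21 over all tested genes. In yDucts against the same Acini arrays, 29 Rab genes were higher, 51.8% against 43.6% of all tested genes, and 11 were lower, 19.6% against 32.6%, with a median of 0.59 against 0.24. Of these, 25 and 10 changed by 2-fold or more. These shares depend on the scaling of the arrays. After cyclic loess, 18 Rab genes were higher and 18 lower in Ducts, and 21 were higher and 17 lower in yDucts. Of all tested genes, 25.8% were then higher and 36.6% lower in Ducts, and 27.1% and 36.1% in yDucts. The median difference was 0.01 and 0.08 over the Rab genes and -0.18 and -0.16 over all tested genes.

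**Figure D1:**
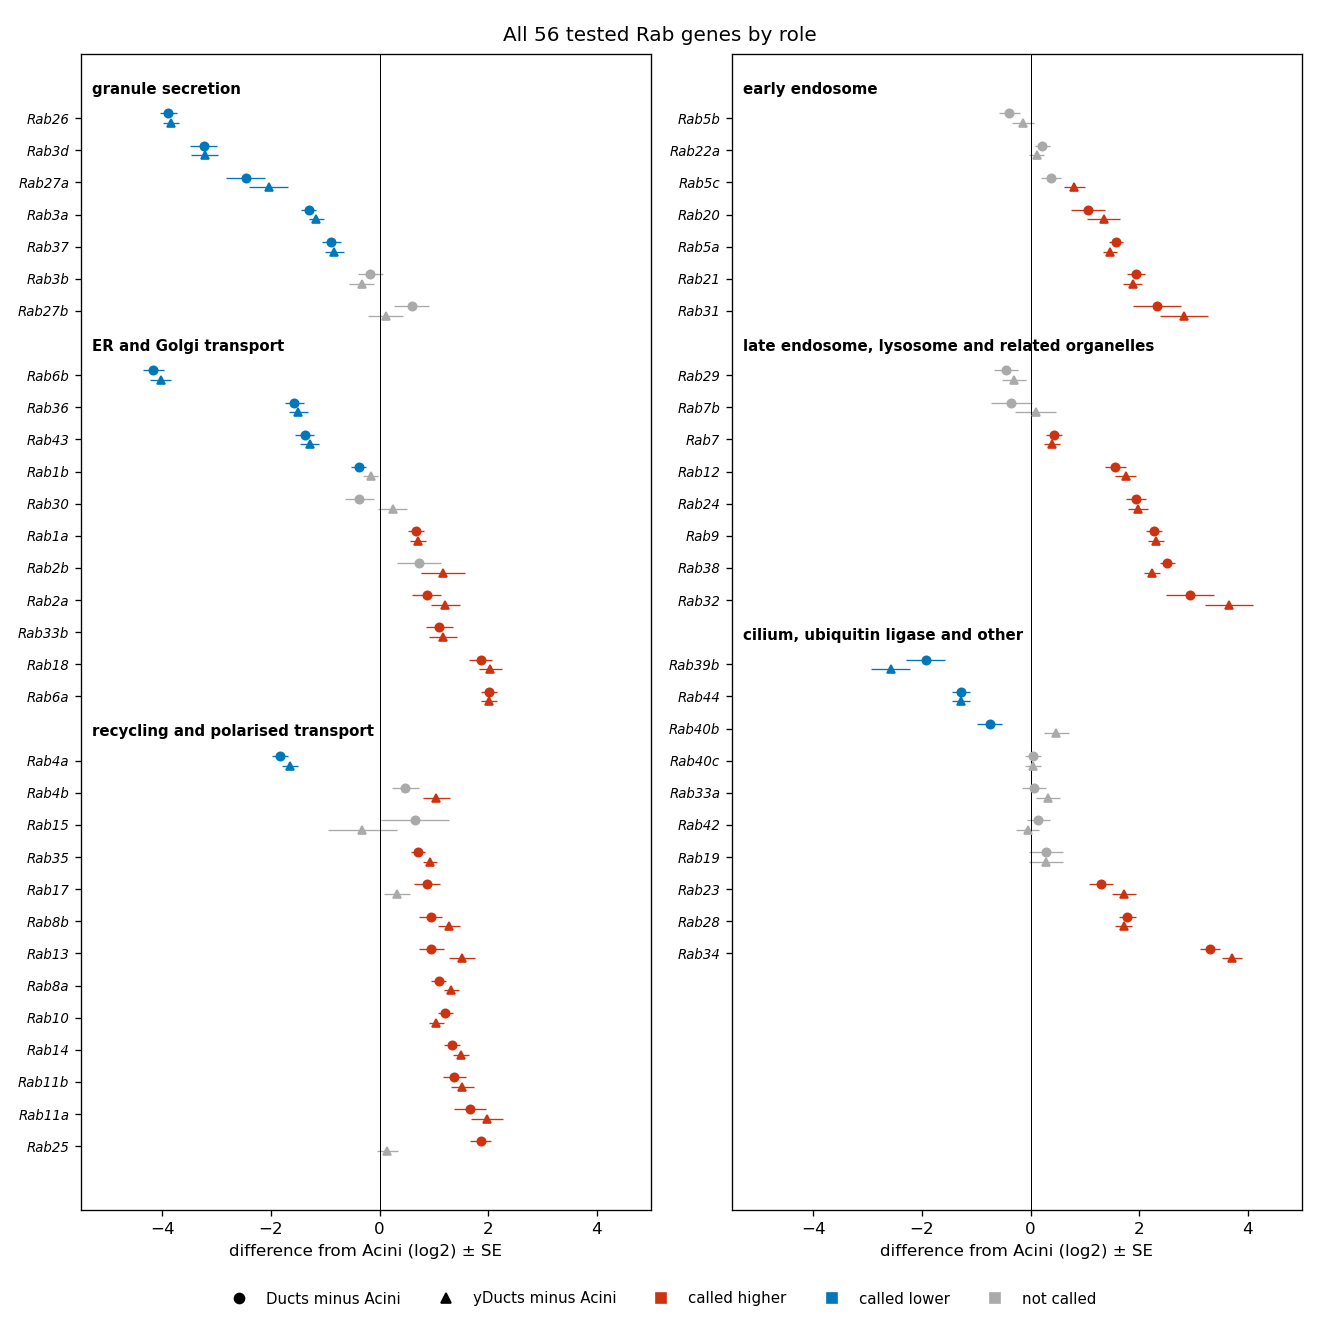
Difference from Acini (log2, horizontal axis) of the 56 tested Rab genes, grouped by role and ordered within a role by the Ducts value. Circles are Ducts minus Acini and triangles yDucts minus Acini, bars are the SE of the model over 12 arrays, and colour marks the call; all 5 called granule genes lie left of 0, and with the deposited scaling all called genes of the early and late endosome lie right of it, whereas quantile normalization and cyclic loess put 1 or 2 of each list on the left.

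With the deposited scaling and all arrays at equal weight, 5 of 7 tested Rab genes of regulated secretion were lower in both organoid groups. None was higher. That is 71.4% lower in each, against 33.1% of all tested genes in Ducts and 32.6% in yDucts. The 5 include Rab37, which passed the filter through Acini, where it was high, so its call is not separate support. The call of Rab27b changed with the settings, as given in its paragraph. Rab26, a granule protein that is abundant in secretory cells with large granules, fell the most of these genes with the deposited scaling. Its values were 8.17, 8.10, 8.42 and 8.11 on Acini arrays A to D, then 4.55, 4.49, 4.20 and 4.0 in Ducts, and 4.41, 4.36, 4.21 and 4.46 in yDucts. No organoid array came near the lowest Acini array. The difference was -3.89 ± 0.15 in Ducts (14.8-fold lower, adjusted p = 3.93e-10, limma) and -3.84 ± 0.15 in yDucts (14.3-fold lower, adjusted p = 4.23e-10, limma).

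Rab3d, the zymogen granule Rab, had 10.18, 10.32, 10.64 and 10.32 in Acini. Ducts had 6.78, 8.0, 7.04 and 6.67, and yDucts had 7.14, 7.09, 7.10 and 7.25. The groups did not overlap, and Ducts array B was the highest organoid array. Rab3d was 9.46-fold lower in Ducts (-3.24 ± 0.24, adjusted p = 1.37e-07, limma) and 9.32-fold lower in yDucts (-3.22 ± 0.24, adjusted p = 1.47e-07, limma). Its 3 other probe sets moved the same way, with differences in Ducts of -2.80, -3.26 and -1.79.

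Rab27a carries secretory lysosomes and granules to the plasma membrane through its effectors. It measured 7.14, 7.75, 7.93 and 7.52 in Acini, 4.20, 6.37, 4.91 and 4.99 in Ducts and 5.68, 5.21, 5.50 and 5.79 in yDucts. Every organoid array was below every Acini array, and Ducts array B again stood above the other Ducts arrays. The difference was -2.47 ± 0.36 in Ducts (adjusted p = 4.34e-05, limma) and -2.04 ± 0.36 in yDucts (adjusted p = 0.00021, limma). A dimmer probe set of Rab27a was lower by less, by -1.13 and -0.91 (adjusted p = 2.24e-05 and 0.000148, limma). Another was called in neither (-0.62 and -0.48, adjusted p = 0.0522 and 0.119, limma).

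Rab3a, best known from synaptic vesicles and endocrine granules, was lower by less. Its values were 9.34, 9.17, 9.48 and 9.30 in Acini, 7.80, 8.32, 8.05 and 7.90 in Ducts and 8.24, 8.22, 8.11 and 8.07 in yDucts. All organoid arrays lay below all Acini arrays, by 2.47-fold on average in Ducts (-1.31 ± 0.14, adjusted p = 3.48e-06, limma) and 2.24-fold in yDucts (-1.16 ± 0.14, adjusted p = 9.5e-06, limma). The name of this probe set ends in x_at, and the limit of such sets is given with Rab27b. The other probe set of Rab3a was lower as well, by -1.29 in Ducts and -1.09 in yDucts (adjusted p = 8.11e-05 and 0.000316, limma).

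Rab37, a Rab of granules in secretory and mast cells, was dim throughout. It lay above the 30th percentile on 5 arrays, mostly Acini, and so passed the filter through the group where it was high. It had 4.31, 3.82, 3.67 and 3.78 in Acini, 2.99, 2.98, 3.19 and 2.87 in Ducts and 3.23, 2.68, 3.14 and 3.20 in yDucts. Both organoid means lay below the 30th percentile, so it was at least 1.61-fold lower in Ducts and at least 1.62-fold lower in yDucts (adjusted p = 0.000533 and 0.000852, limma). This call was lost after quantile normalization and after cyclic loess, where the adjusted p ranged from 0.0616 to 0.175.

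Rab3b, another Rab3 of neuroendocrine granules, did not pass the test. Its values of 5.48, 5.35, 4.74 and 4.45 in Acini overlapped those of 4.51, 4.76, 5.11 and 4.96 in Ducts and 4.78, 4.91, 4.49 and 4.54 in yDucts. Its differences were -0.17 ± 0.23 in Ducts and -0.33 ± 0.23 in yDucts (adjusted p = 0.512 and 0.21, limma). Islet cells also use Rab3a, Rab3b, Rab26, Rab27a and Rab37, and 8 of the 8 tested islet markers were lower in both organoid groups, among them insulin 2 (Ins2) by 7.24 in Ducts. How much of the Acini signal of these Rab genes came from islet cells was not tested.

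**Figure D2:**
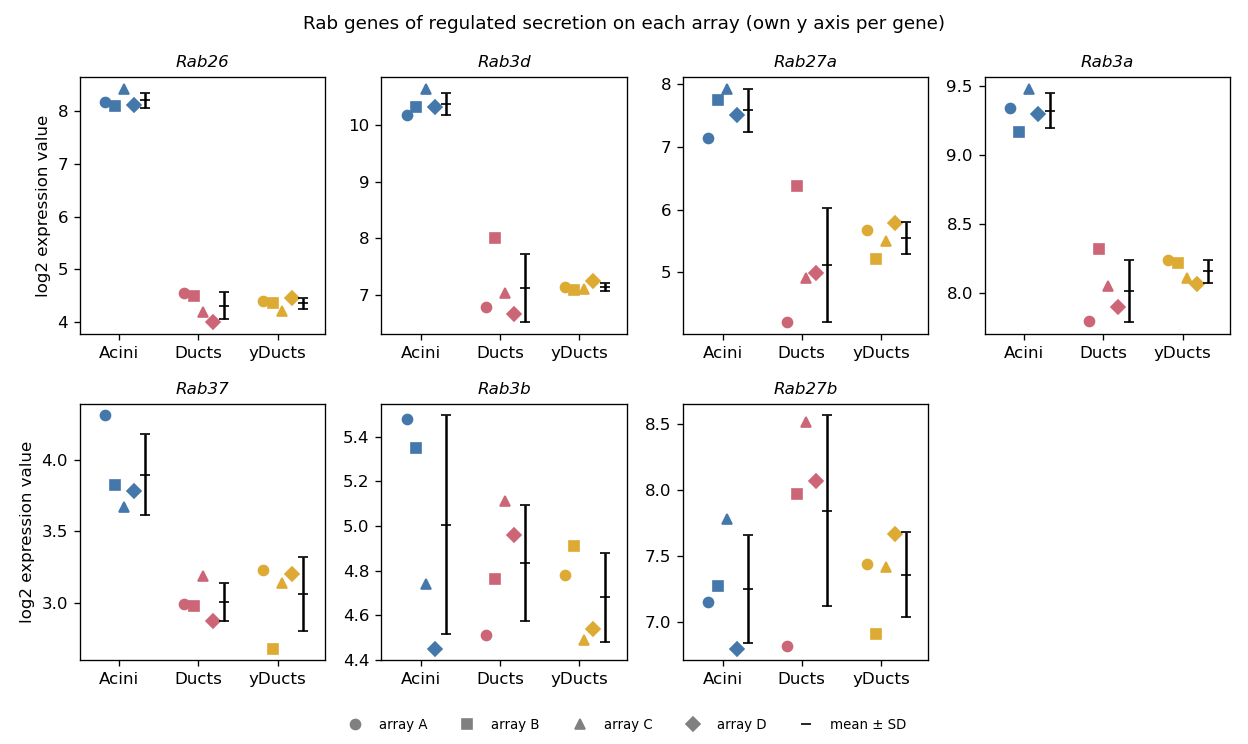
Expression value (log2, own vertical axis per gene) of the 7 tested Rab genes of regulated secretion on each array. Symbols are arrays A to D and the bars beside them the mean ± SD of 4 arrays; Rab26, Rab3d, Rab27a, Rab3a and Rab37 show no overlap between Acini and the organoid groups, whereas Rab3b and Rab27b do.

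Rab27b, which shares many effectors with Rab27a and is also found on zymogen granules, gave different answers by probe set. On the brightest probe set it measured 7.15, 7.27, 7.78 and 6.80 in Acini. It measured 6.82, 7.97, 8.51 and 8.07 in Ducts and 7.44, 6.91, 7.42 and 7.67 in yDucts. The groups overlapped, and Ducts array A was as low as the lowest Acini array. The difference was 0.59 ± 0.32 in Ducts (adjusted p = 0.111, limma) and 0.11 ± 0.32 in yDucts (adjusted p = 0.765, limma). The pair of dimmer sets had differences of 0.26 and -0.21 in Ducts and -0.31 and -0.31 in yDucts, neither called. The remaining set, whose name ends in x_at, had 7.11, 7.40, 7.04 and 7.46 in Acini against 5.32, 5.90, 6.04 and 5.80 in Ducts and 6.0, 6.08, 5.80 and 6.16 in yDucts, with no overlap. Tested as a probe set of its own, it was lower by 1.49 ± 0.18 in Ducts and by 1.24 ± 0.18 in yDucts (adjusted p = 7.42e-06 and 3.56e-05, limma over 27577 probe sets). That ending marks a set whose probes can also match other transcripts. No direction can therefore be given for Rab27b. The brightest set was called higher in Ducts without Ducts array A (0.93, adjusted p = 0.00523, limma), without Ducts A and B (1.04, adjusted p = 0.00581, limma), with arrays centred on their medians (0.80, adjusted p = 0.0413, limma) and with array weights (1.01, adjusted p = 0.0195, limma). It was called lower in yDucts after quantile normalization (-0.79, adjusted p = 0.039, limma) and cyclic loess (-0.90, adjusted p = 0.0224, limma).

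**Figure D3:**
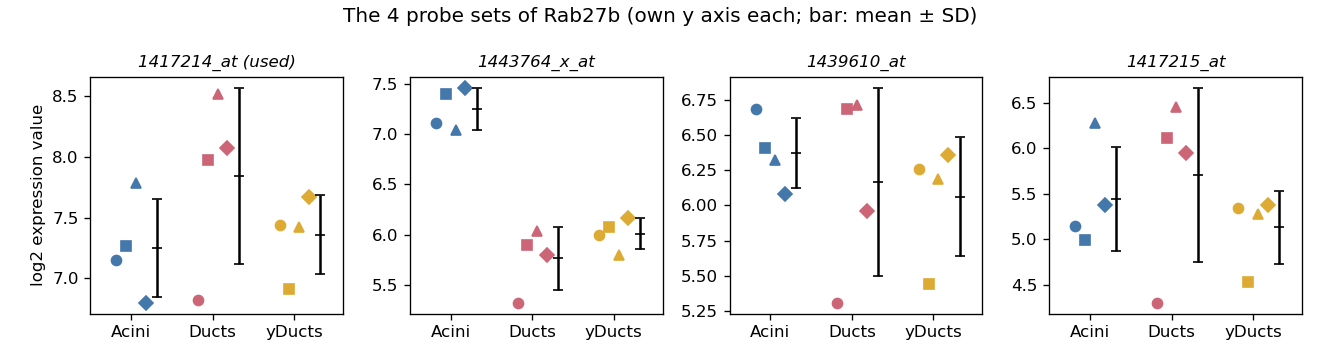
Expression value (log2, own vertical axis per probe set) of the 4 probe sets of Rab27b on arrays A to D (circle, square, triangle, diamond) of each group, with the mean ± SD of 4 arrays. Ducts array A is the lowest array of its group on all 4; on 3 of them the groups overlap, whereas on the set ending in x_at all organoid arrays lie below all Acini arrays.

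Promoters of some granule genes that fell are shown, with that of Rab6b, which is not in the granule list. RefSeq promoters on GRCm38.p6, from 250 bases before to 50 after each start, were at hand for 48 of the 59 genes, 60 promoters in all. The letters CAGCTG and CATATG were searched on both strands as E-boxes, the kind of site that acinar factors such as Ptf1a and Bhlha15 bind, and GGAATG as the site of the TEAD partners of YAP. The sequences run 5′ to 3′ on the strand of the gene and end at the base before the start, unless a shorter window is named. Capitals mark a match to one of these motifs. For Rab3d (chr9:21918184-21918433, minus strand), the 250 bases held none.
Rab3d: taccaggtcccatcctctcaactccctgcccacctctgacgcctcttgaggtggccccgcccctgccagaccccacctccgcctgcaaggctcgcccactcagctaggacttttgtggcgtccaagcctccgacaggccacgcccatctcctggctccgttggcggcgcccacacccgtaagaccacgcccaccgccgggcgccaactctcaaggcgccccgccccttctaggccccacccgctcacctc
For Rab6b (chr9:103111824-103112073, plus strand), whose fall is given below, there was a single CAGCTG.
Rab6b: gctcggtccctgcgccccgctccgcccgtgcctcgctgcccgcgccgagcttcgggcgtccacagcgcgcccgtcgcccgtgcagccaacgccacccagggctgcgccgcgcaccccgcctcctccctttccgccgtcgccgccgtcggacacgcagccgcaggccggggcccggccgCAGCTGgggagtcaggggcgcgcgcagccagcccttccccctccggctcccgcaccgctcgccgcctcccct
For the second annotated start of Rab27a and of Rab3a, a window of 30 bases around the match is given (chr9:73064116-73064145 and chr8:70754900-70754929, plus strand). The promoter at the first start of each gene held no match to any of the motifs.
Rab27a: cccagcCATATGacgagCAGCTGagactca
Rab3a: agcccgcgtttcactgaCAGCTGggggatc
CAGCTG was present in 23.3% of the 60 Rab promoters and 16.3% of all 32851 promoters, CATATG in 1.67% and 3.91%, and GGAATG in 11.7% and 14.7%. CAGCTG was in 4 of 13 promoters of genes called lower in Ducts (Rab6b, Rab27a, Rab3a and Rab40b). It was also in 3 of 29 promoters of genes called higher (Rab6a, Rab11a and Rab17), which are not shown. These are counts of letters, not binding sites, and a link with the direction of change was not tested. Promoters of Rab18, Rab26, Rab27b, Rab2a, Rab30, Rab36, Rab37, Rab38, Rab44, Rab4a and Rab7b are not used here.

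Rab genes of transport between the endoplasmic reticulum (ER) and the Golgi had calls in both directions, in shares near those of all tested genes. In Ducts 5 of 11 were higher and 4 lower, 45.5% and 36.4% against 42.7% and 33.1%, and in yDucts 6 were higher and 3 lower, 54.5% and 27.3% against 43.6% and 32.6%. After quantile normalization 2 were higher and 4 lower in each comparison, and after cyclic loess 2 were higher and 5 lower in Ducts and 4 and 4 in yDucts. The 2 Rab6 genes, which act in retrograde transport at the Golgi, went opposite ways. Rab6b, the form best known from neurons, had 7.47, 7.31, 7.82 and 7.47 in Acini, 3.80, 2.83, 3.33 and 3.43 in Ducts and 3.35, 3.65, 3.42 and 3.53 in yDucts. All organoid arrays were near the 30th percentile of their group. With the deposited scaling its fall was the largest of any Rab gene, -4.17 ± 0.19 in Ducts (18.0-fold, adjusted p = 2.04e-09, limma) and -4.03 ± 0.19 in yDucts (16.3-fold, adjusted p = 2.83e-09, limma). After cyclic loess Rab3d (-4.34 and -4.31) and Rab26 (-4.285 and -4.23) fell more than Rab6b (-4.01 and -3.85). The other probe sets of Rab6b fell by less, with differences in Ducts from -2.03 to -0.905.

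Rab6a, the widely expressed form, had 7.49, 7.92, 7.78 and 7.42 in Acini, 9.74, 9.85, 9.50 and 9.57 in Ducts and 9.63, 9.69, 9.68 and 9.67 in yDucts. Every organoid array was above every Acini array. The difference was 2.01 ± 0.15 in Ducts and 2.02 ± 0.15 in yDucts (adjusted p = 9.93e-08 and 9.61e-08, limma). Rab18, which acts at the ER and on lipid droplets, had 7.90, 8.60, 9.11 and 8.25 in Acini, 10.36, 10.30, 10.26 and 10.39 in Ducts and 10.56, 10.52, 10.32 and 10.63 in yDucts. The groups were apart, by 1.86 ± 0.21 in Ducts and 2.04 ± 0.21 in yDucts (adjusted p = 5.26e-06 and 2.25e-06, limma). A second probe set of Rab18 showed 3.91 and 4.22.

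Of the remaining ER and Golgi genes, Rab1a, Rab2a and Rab33b were called higher and Rab36 and Rab43 lower in both organoid groups, Rab36 by 1.57 and Rab43 by 1.38 in Ducts. Rab1a and Rab2a, which act in traffic between the ER and Golgi, rose by 0.67 and 0.87 in Ducts. Their calls and that of Rab33b were lost after quantile normalization and after cyclic loess, and Rab1a was then called lower in Ducts by cyclic loess (-0.34, adjusted p = 0.0376, limma). The other probe sets of both genes were mixed. In Ducts those of Rab1a differed by 0.25 and -0.08, neither called, and those of Rab2a ran from -0.59 (adjusted p = 0.0275, limma) to 0.55 (adjusted p = 0.0236, limma). Rab2b passed the test in yDucts (1.17 ± 0.40, adjusted p = 0.0189, limma) and not in Ducts (0.73 ± 0.40, adjusted p = 0.116, limma) on its brightest probe set. Of its 4 other sets, 3 were called higher in Ducts, by 1.50, 1.37 and 0.92, and 1 of these was also higher in yDucts than in Ducts (0.95, adjusted p = 0.0469, limma). On the brightest set the organoid groups differed by 0.43 ± 0.40 (adjusted p = 0.791, limma). Rab1b was lower in Ducts, by 0.38 ± 0.14 (adjusted p = 0.0239, limma), and differed by -0.16 in yDucts, where it was called lower after quantile normalization (-1.05) and cyclic loess (-1.24). Rab30 was called in neither with the deposited scaling.

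Rab genes of recycling endosomes and polarised transport were mostly higher in the organoids, 10 of 13 in Ducts and 9 of 13 in yDucts, and the median difference was 0.96 and 1.05. The shares higher were 76.9% and 69.2% against 42.7% and 43.6% of all tested genes. The counts moved with scaling. After quantile normalization 7 were higher and 1 lower in Ducts and 5 and 2 in yDucts, and after cyclic loess 2 were higher and 2 lower in Ducts and 3 and 2 in yDucts. Rab11a, the central Rab of the recycling endosome, had 8.37 to 9.17 in Acini, 9.98 to 11.38 in Ducts and 10.68 to 11.02 in yDucts. The groups of organoids lay above Acini, by 1.67 ± 0.29 and 1.98 ± 0.29. Its relative Rab11b differed by 1.37 ± 0.21 and 1.52 ± 0.21, and Rab14, which acts between the Golgi and endosomes, by 1.33 ± 0.15 and 1.50 ± 0.15. Rab8a and Rab10, which carry cargo from the Golgi to the basolateral or apical surface, differed by 1.09 and 1.21 in Ducts and by 1.32 and 1.05 in yDucts. A dimmer probe set of Rab8a went the other way. It differed by -0.50 in Ducts (adjusted p = 0.0547, limma) and was lower in yDucts (-0.58, adjusted p = 0.0286, limma). Rab8b, Rab13, a Rab of tight junction traffic, and Rab35 were also called higher in both, but Rab35 was called lower in Ducts after cyclic loess (-0.34, adjusted p = 0.037, limma). Rab17 was called higher in Ducts on its brightest probe set (0.87 ± 0.24, adjusted p = 0.00556, limma), while its other set was lower in both organoid groups (-0.81 and -0.80, adjusted p = 0.0155 and 0.0166, limma), so the probe sets disagreed in direction in Ducts. Rab4b was called higher in yDucts (1.05 ± 0.25) and not in Ducts (0.48 ± 0.25), and the organoid groups did not differ by test (adjusted p = 0.33, limma). Rab15 was called in neither.

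The exception was Rab4a, which serves fast recycling from early endosomes. It had 7.89, 7.79, 8.21 and 8.06 in Acini, 6.44, 6.08, 6.14 and 5.97 in Ducts and 6.37, 6.33, 6.40 and 6.25 in yDucts. No organoid array reached the Acini range. It was 3.56-fold lower in Ducts (-1.83 ± 0.14, adjusted p = 2.03e-07, limma) and 3.14-fold lower in yDucts (-1.65 ± 0.14, adjusted p = 4.98e-07, limma). Its other probe set differed by less, by -0.625 in Ducts (adjusted p = 0.0117, limma) and by -0.46 in yDucts, where it was not called (adjusted p = 0.0509, limma).

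In the early endosome, 4 of 7 Rab genes were higher in Ducts and 5 in yDucts, 57.1% and 71.4% against 42.7% and 43.6% of all tested genes, and none was lower. After quantile normalization and after cyclic loess, 4 were higher in each comparison, while 2 were lower in Ducts and 1 in yDucts. Rab31, a Rab5 relative of trans-Golgi and endosome traffic, had 5.54, 5.95, 4.80 and 4.61 in Acini, 7.33, 6.12, 8.40 and 8.36 in Ducts and 7.93, 8.17, 7.89 and 8.22 in yDucts. Ducts array B lay just above the highest Acini array, and Ducts A and B below Ducts C and D. The difference was 2.33 ± 0.44 in Ducts (adjusted p = 0.000398, limma) and 2.83 ± 0.44 in yDucts (adjusted p = 8.03e-05, limma). Rab21, which recycles integrins, was higher by 1.95 ± 0.17 and 1.88 ± 0.17. Rab5a, the main Rab of early endosome fusion, was higher by 1.57 ± 0.13 and 1.47 ± 0.13. Rab20 was called higher in both and Rab5b in neither. Rab5c was called higher in yDucts (0.81 ± 0.19) and not in Ducts (0.38 ± 0.19), where quantile normalization and cyclic loess gave lower calls (-0.50 and -0.75), and the organoid groups did not differ by test (adjusted p = 0.335, limma). Rab22a was called in neither comparison with the deposited scaling and lower in both after quantile normalization (-0.67 and -0.78) and cyclic loess (-0.85 and -0.96). The 3 other probe sets of Rab22a differed in Ducts by 1.78, 0.83 and 1.23, more than the 0.22 of its brightest set.

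Rab genes of late endosomes, lysosomes and related organelles were higher for 6 of 8 in each organoid group, 75% against 42.7% and 43.6% of all tested genes, with medians of 1.76 and 1.86. None was lower, although quantile normalization gave 5 higher and 1 lower, and cyclic loess 5 higher and 2 lower, in each comparison. Rab32, which with Rab38 builds lysosome-related organelles such as melanosomes, had 4.15, 4.42, 5.10 and 5.13 in Acini, 8.75, 8.47, 6.75 and 6.58 in Ducts and 8.40, 8.50, 8.44 and 8.10 in yDucts. Ducts arrays A and B were at the level of yDucts, and Ducts C and D lay between yDucts and Acini. The difference was 2.94 ± 0.44 in Ducts (7.66-fold, adjusted p = 5.51e-05, limma) and 3.66 ± 0.44 in yDucts (12.6-fold, adjusted p = 8.13e-06, limma).

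Rab38 had 5.58, 5.92, 5.58 and 5.82 in Acini, 8.03, 8.14, 8.51 and 8.31 in Ducts and 7.87, 8.03, 7.90 and 8.08 in yDucts. All organoid arrays lay above all Acini arrays, by 2.52 ± 0.15 in Ducts and 2.25 ± 0.15 in yDucts (adjusted p = 1.44e-08 and 3.89e-08, limma). Rab9, which returns mannose 6-phosphate receptors from late endosomes to the Golgi, had 6.73, 7.24, 7.0 and 6.91 in Acini, 9.04, 9.49, 9.17 and 9.27 in Ducts and 9.33, 9.22, 9.30 and 9.25 in yDucts. It was apart in the same way, by 2.27 ± 0.15 and 2.31 ± 0.15 (adjusted p = 3.54e-08 and 3.12e-08, limma). Rab12 and Rab24, which act in late endosome traffic and autophagy, were higher by 1.56 and 1.95 in Ducts and by 1.75 and 1.98 in yDucts. The other probe set of Rab12 differed by -0.27 in Ducts (adjusted p = 0.18, limma) and was lower in yDucts (-0.60, adjusted p = 0.0083, limma). Rab7, the main Rab of late endosomes, was higher by 0.44 ± 0.14 and 0.40 ± 0.14 on its brightest probe set and by 1.85 and 1.81 on its other set. On the brightest set the call was lost after quantile normalization, and after cyclic loess Rab7 was called lower (-0.64 in Ducts and -0.68 in yDucts, adjusted p = 0.00132 and 0.000878, limma). Rab7b was called in neither. Rab29 was not called with the deposited scaling (-0.46 and -0.31) and was called lower in both after quantile normalization (-1.26 and -1.15) and cyclic loess (-1.34 and -1.18).

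Among the remaining Rab genes, 3 of 10 were higher in each organoid group, while 3 were lower in Ducts and 2 in yDucts. The share higher was 30% in each, below the 42.7% and 43.6% of all tested genes. The shares lower were 30% and 20%, against 33.1% and 32.6%. Rab34, which acts in lysosome positioning and in the growth of primary cilia, rose the most of all Rab genes in both comparisons with the deposited scaling. After quantile normalization Rab32 rose more, by 2.78 against 2.56 in Ducts and by 3.46 against 2.96 in yDucts. After cyclic loess Rab32 rose more in yDucts (2.76 against 2.60). Rab34 had 6.04, 5.60, 6.34 and 6.25 in Acini, 9.46, 8.96, 9.45 and 9.59 in Ducts and 9.72, 9.75, 9.84 and 9.75 in yDucts. The yDucts arrays were all above the Ducts arrays, and both far above Acini. The difference from Acini was 3.31 ± 0.18 in Ducts (9.90-fold, adjusted p = 9.88e-09, limma) and 3.71 ± 0.18 in yDucts (13.1-fold, adjusted p = 3.55e-09, limma), and that between the organoid groups did not pass the test (0.40 ± 0.18, adjusted p = 0.359, limma). Rab23, a Rab of cilia and Hedgehog signalling, and Rab28, also a ciliary Rab, were higher by 1.29 and 1.79 in Ducts and 1.72 and 1.71 in yDucts.

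Rab39b, a Rab known from neurons, fell. It had 5.21, 6.02, 5.15 and 5.69 in Acini, 2.91, 2.76, 4.30 and 4.37 in Ducts and 2.73, 3.12, 3.06 and 2.85 in yDucts. Ducts C and D lay above the other organoid arrays and below Acini. It was 3.82-fold lower in Ducts (-1.93 ± 0.35, adjusted p = 0.000279, limma) and at least 5.0-fold lower in yDucts (adjusted p = 2.46e-05, limma). Rab44, a large Rab of granule-bearing immune cells, was lower by 1.28 ± 0.16 in both organoid groups (adjusted p = 1.38e-05 and 1.37e-05, limma), and 8 of 9 immune markers were lower in both as well. The part of immune cells in this result was not tested. Rab19, Rab33a, Rab40c and Rab42 were called in neither comparison with the deposited scaling, and Rab33a and Rab42 lay near or below the 30th percentile. Rab40c was called lower in both after quantile normalization (-0.84 and -0.83) and cyclic loess (-1.08 in each), while its second probe set differed by 2.32 in Ducts and 2.58 in yDucts with the deposited scaling.

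Between the 2 organoid groups, calls were few when all arrays had equal weight. Of 56 tested, 1 was called higher in yDucts than in Ducts, 1.79% against 2.15% of all tested genes, and 1 was called lower, 1.79% against 0.987%. With array weights, 14 were higher and 9 lower, while 21% and 20.2% of all tested genes were called. Over the 54 genes not called, the 95% interval of the difference stayed within 2-fold in either direction for 42 and reached past it for 12. The half-width of these intervals had a median of 0.42 and a highest value of 1.36.

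Rab25, an epithelial relative of Rab11 that acts in apical recycling and transcytosis, was lower in yDucts. It had 7.71, 7.62, 7.86 and 8.02 in Acini, 9.35, 9.97, 9.75 and 9.61 in Ducts and 7.54, 7.98, 7.87 and 8.39 in yDucts. All 4 Ducts arrays stood above all others, and yDucts overlapped Acini. The difference between yDucts and Ducts was -1.73 ± 0.19 (3.31-fold lower, adjusted p = 0.000267, limma). Ducts exceeded Acini by 1.87 ± 0.19 (adjusted p = 2.22e-06, limma), and yDucts exceeded Acini by 0.14 ± 0.19 (adjusted p = 0.513, limma). The last difference turned with scaling, and yDucts were called lower than Acini after quantile normalization (-0.75, adjusted p = 0.0053, limma) and cyclic loess (-0.97, adjusted p = 0.000941, limma), whereas Ducts stayed higher than Acini in both (0.99 and 0.76). Rab25 has a single probe set. Leaving out Ducts C and D gave -1.72 for the difference between organoid groups, and leaving out Ducts A and B gave -1.74.

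Rab40b, a Rab joined to a ubiquitin ligase module, was higher in yDucts than in Ducts. It had 4.46, 4.49, 4.13 and 4.60 in Acini, 3.62, 4.31, 3.11 and 3.64 in Ducts and 5.09, 4.51, 4.89 and 5.07 in yDucts. The organoid groups did not overlap, but Ducts B and yDucts B came within 0.20 of each other. The difference was 1.22 ± 0.23 (2.33-fold, adjusted p = 0.0113, limma). It did not pass the test without yDucts array A (1.15, adjusted p = 0.0518, limma) or without Ducts C and D (0.93, adjusted p = 0.0969, limma), and its second probe set differed by 0.03. Against Acini, Rab40b was called lower in Ducts (-0.75 ± 0.23, adjusted p = 0.0101, limma) and not called in yDucts (0.47 ± 0.23, adjusted p = 0.0802, limma). After quantile normalization and cyclic loess, yDucts were called higher than Acini (0.68 and 0.92, adjusted p = 0.0181 and 0.00342, limma) and Ducts were not called.

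**Figure D4:**
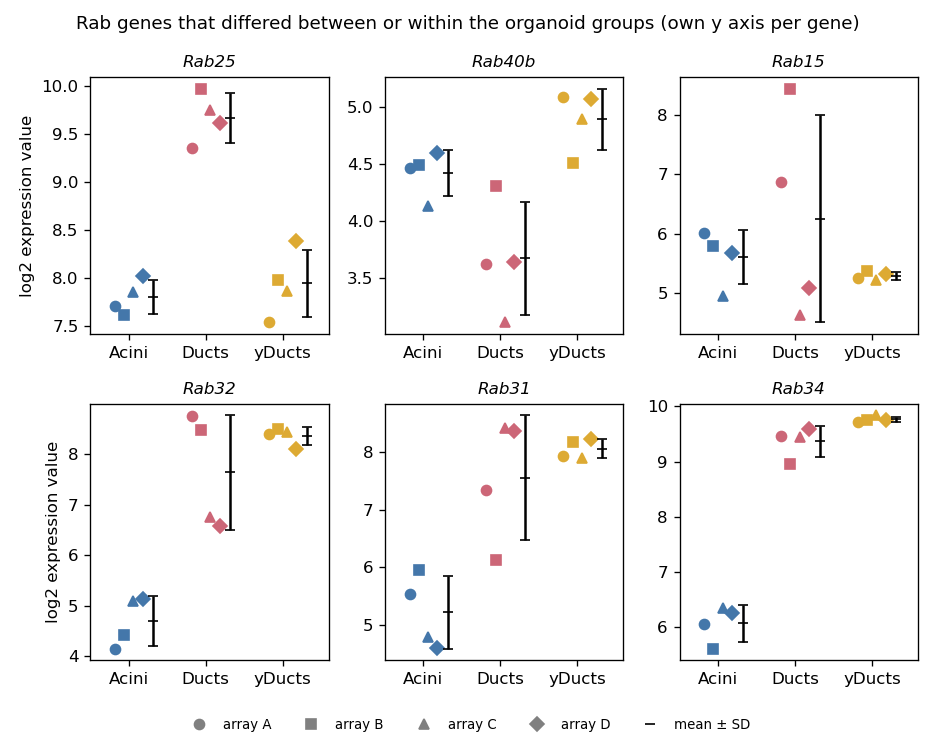
Expression value (log2, own vertical axis per gene) on arrays A to D of 6 Rab genes that differed between the organoid groups or among the Ducts arrays, with the mean ± SD of 4 arrays. Rab25 is high on all 4 Ducts arrays alone, and in Rab15, Rab32 and Rab31 Ducts arrays A and B stand apart from Ducts C and D.

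The Ducts arrays fell into 2 pairs for several Rab genes. The mean of arrays A and B exceeded that of C and D by 1 or more for 4 genes, Rab11a, Rab15, Rab32 and Rab7b, and lay below it by 1 or more for Rab31 and Rab39b. Rab15, a Rab of early and recycling endosomes, was the most uneven, with 6.87, 8.44, 4.63 and 5.09 on Ducts A to D, 4.95 to 6.01 in Acini and 5.23 to 5.37 in yDucts. The median SD over the tested Rab genes was 0.32 in Acini, 0.27 in Ducts and 0.13 in yDucts. The comparison of organoid groups depended on these pairs. With Ducts C and D left out, Rab15 was called lower in yDucts by 2.36 (adjusted p = 0.00742, limma) and no Rab gene was called higher. With Ducts A and B left out, 6 Rab genes were called higher and 3 lower, while 8.65% and 5.94% of all tested genes were called. Rab32 was among the higher, by 1.7 (adjusted p = 0.00149, limma). Both subsets left 2 Ducts arrays. The pairs were described from these same values, so the calls for Rab15 and Rab32 are not separate support for a difference.

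Rab proteins work with a common set of partners, and these genes were read from lists of 76 names, of which 69 were on the array and 68 were tested. In Ducts 33 were higher and 16 lower than in Acini, 48.5% and 23.5% against the 42.7% and 33.1% of all tested genes. In yDucts 32 were higher and 19 lower, 47.1% and 27.9% against 43.6% and 32.6%. Their medians were 0.47 and 0.45. In the list of Rab escort and prenylation, some genes serve to attach the lipid anchor that Rab proteins need to bind membranes. Others, such as Rabif, have another role. Of the whole list, 5 of 7 tested were higher in Ducts and 4 of 7 in yDucts. These shares were 71.4% and 57.1%, against 42.7% and 43.6% of all tested genes. Of the 2 Rab escort proteins, Chml lay below the 30th percentile in Acini and was at least 7.59-fold higher in Ducts and at least 6.33-fold higher in yDucts, and Chm differed by 2.60 ± 0.42 and 2.76 ± 0.42. Rabif, a chaperone of Rab proteins that lack nucleotide, was higher by 3.21 ± 0.23 and 3.49 ± 0.23. After quantile normalization 4 of the 7 were higher in each comparison, while 2 were lower in Ducts and 3 in yDucts.

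Effectors of Rab3 and Rab27, which tether and prime granules, went both ways. In Ducts 4 of 9 were higher and 5 lower, and in yDucts 2 were higher and 5 lower. The shares in Ducts were 44.4% higher and 55.6% lower, against 42.7% and 33.1% of all tested genes. In yDucts they were 22.2% and 55.6%, against 43.6% and 32.6%. The lower genes were Rph3al (Noc2), Rims1, Sytl1, Sytl4 (granuphilin) and Myrip. Myrip, which links Rab27a to myosin, differed by -3.07 ± 0.39 in Ducts and -1.56 ± 0.39 in yDucts, and Sytl1, an effector of Rab27, by -2.82 ± 0.35 and -2.91 ± 0.35. The higher genes in Ducts were Exph5, Mlph, Myo5a and Unc13d, of which Exph5, a Rab27 effector of exosome and granule release, differed by 2.12 ± 0.42 (adjusted p = 0.000498, limma). The number of lower genes was again 5 in both comparisons after each of the 3 other scalings. Noc2 and granuphilin are also genes of islet cells, and the islet markers were lower in both organoid groups as given above.

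**Figure D5:**
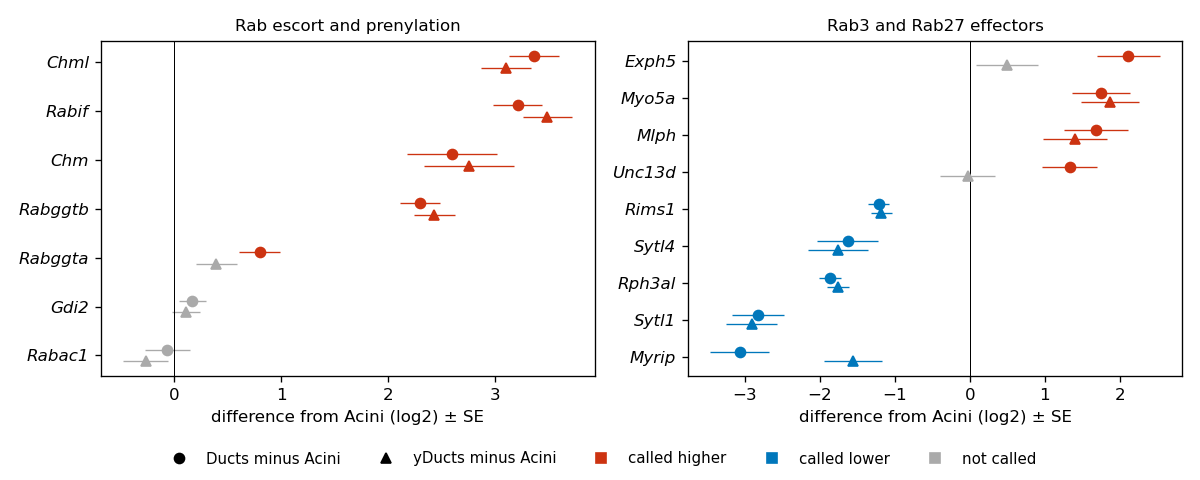
Difference from Acini (log2 ± SE of the model over 12 arrays, horizontal axis) of the tested genes of Rab escort and prenylation (left) and of Rab3 and Rab27 effectors (right). Circles are Ducts minus Acini, triangles yDucts minus Acini, and colour marks the call; values are as measured, also for Chml, whose Acini mean lay below the 30th percentile; Chml, Rabif, Chm and Rabggtb lie right of 0 in both, and Rims1, Sytl4, Rph3al, Sytl1 and Myrip lie left of it.

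The exchange factors, which load Rab proteins with GTP, were higher for 4 and lower for 6 of 17 in Ducts, 23.5% and 35.3%, and higher for 5 and lower for 8 in yDucts, 29.4% and 47.1%, against the shares of all tested genes given above. Rin1, which activates Rab5, was at least 24.5-fold higher in Ducts and at least 24.7-fold higher in yDucts (adjusted p = 1.28e-08 and 1.25e-08, limma), since it lay below the 30th percentile in Acini. Rin2, of the same family, differed by 2.39 and 2.23. Rab3il1, which activates Rab3a and Rab8a, differed by -1.99 ± 0.24 and -1.94 ± 0.24. After quantile normalization and after cyclic loess, 12 of the 17 were lower in each comparison. The GTPase-activating proteins, which end the signal, were higher for 8 of 14 in both comparisons and lower for 2 in Ducts and 3 in yDucts. That is 57.1% higher in each, and 14.3% and 21.4% lower, against the same shares of all tested genes. Rabgap1 differed by 2.99 and 2.72 and Tbc1d14 by 2.32 and 2.48, while Usp6nl, which acts on Rab5, differed by 1.46 and 1.39. The direction turned with scaling, since 2 were higher and 5 lower in Ducts after quantile normalization and 2 higher and 4 lower after cyclic loess.

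With the deposited scaling, effectors of endosomal Rab proteins were higher more often than lower, as were all tested genes. Of all tested genes, 42.7% were higher and 33.1% lower in Ducts, and 43.6% and 32.6% in yDucts. Effectors of Rab5 and Rab7 were higher for 5 of 9 in Ducts (55.6%) and 7 of 9 in yDucts (77.8%). In each comparison 1 was lower (11.1%). Eea1, the tether of early endosomes, differed by 3.27 ± 0.39 and 2.51 ± 0.39 and Ankfy1, a Rab5 effector of macropinocytosis, by 2.20 ± 0.17 and 2.23 ± 0.17. Rilp, the Rab7 effector that recruits dynein to lysosomes, was lower by 1.64 ± 0.20 and 1.51 ± 0.20. In Ducts 3 were higher and 3 lower after quantile normalization and 3 and 4 after cyclic loess, and in yDucts 3 were higher and 2 lower after either. Effectors of Rab11 and Rab8 were higher for 6 of 9 in Ducts (66.7%) and 5 of 9 in yDucts (55.6%). In each comparison 2 were lower (22.2%). As measured, Micall2, Rab11fip2 and Rab11fip5 led in Ducts, and Rab11fip2 differed by 2.10 ± 0.33 and 2.14 ± 0.33. Micall2 lay below the 30th percentile in Acini, so its rise in Ducts is only known as at least 3.1-fold. In Ducts 3 were higher and 2 lower after quantile normalization and 2 and 2 after cyclic loess, and in yDucts 2 and 2, then 2 and 3. Of 3 effectors of Rab1 and Rab6, Bicd2, the dynein adaptor of Rab6 vesicles, was called, by 2.36 ± 0.26 in both.

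Between the organoid groups, 1 of the 68 partners was called lower in yDucts, 1.47% against 0.987% of all tested genes. None was called higher, against 2.15% of all tested genes. Rab11fip5, an effector of Rab11 and Rab25, differed by -0.81 ± 0.16 in yDucts against Ducts (adjusted p = 0.0138, limma). It was higher than in Acini in both, by 1.39 in Ducts and 0.59 in yDucts. Exph5, Myrip and Unc13d lay near the threshold (adjusted p = 0.0571, 0.0568 and 0.0694, limma).

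Because 38 genes had several probe sets, every probe set was also fitted on its own. Of 122 tested Rab probe sets, 60 were higher and 28 lower in Ducts, 49.2% and 23% against 42.6% and 29.4% of all tested probe sets. In yDucts 59 were higher and 28 lower, 48.4% and 23% against 43% and 29.3%. Among called Rab genes with another probe set above the low range, 10 of 51 other sets moved the opposite way in Ducts, in 7 genes, and 7 of 53 did so in yDucts, in 6 genes. Rab12, Rab1a, Rab2a, Rab43 and Rab8a were among them in both comparisons.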

How the data were processed

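Total RNA of 12 samples was hybridised to Affymetrix mouse arrays. The deposited values were log2 expression, with 1 value for a probe set on an array, and the submitters' processing notes name RMA (background correction, quantile normalization, median polish). Neither its version nor whether all arrays went through it together is given in the sources used here. RMA values are relative to the other genes on an array, and the number of arrays limits the precision. Groups came from the sample titles. Members and lists were chosen with earlier results of these data known.

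Of 45101 probe sets (64 controls), those with 1 gene symbol in the platform annotation gave 18193 genes by the brightest probe set. Genes above the 30th percentile of an array on at least 4 arrays were tested (14990) with limma 3.58.1 (R 4.3.3): 1 mean per group, all 12 arrays, 3 contrasts, eBayes (residual degrees of freedom 9, prior 3.72), and two-sided Benjamini-Hochberg adjusted p under 0.05. The function was tested on simulated data. Where a group mean lay below the 30th percentile, its values were raised to it and folds are written "at least". Full values were given for Rab3d, Rab27b, the other granule genes and, per comparison, the 6 largest rises and falls among called genes without overlap. Of the lists of partners, up to 3 called members with the largest differences were named under the rule, and others named were chosen after their values were seen. Alternatives were other scalings, filters, probe set choices, weights, sample subsets and the replicate letter as a block, and fitting every probe set alone was added after seeing the data. Promoters came from RefSeq (GRCm38.p6).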

Additional observations from a re-analysis of the deposited data

Results flagged for a closer look

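Of the 168 sets of 4 arrays formed by 56 Rab genes and 3 groups, 7 held an array whose gap to the next was large against the range of the set, and chance gives about 1 in 20. In yDucts, array B stood apart for Rab37 at 2.68, for Rab4b at 7.70 and for Rab5b at 5.18. In Acini, array A stood apart for Rab21 at 6.66 and for Rab7b at 4.82, and array C for Rab11b at 8.16. In Ducts, array D stood apart for Rab5a at 10.39. The distance was under 0.20 for Rab4b and Rab5a.

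The change from Acini differed by test between the organoid groups for 2 Rab genes. For Rab25 the difference of yDucts from Ducts was -1.73, and for Rab40b it was 1.22.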

How the results depend on the processing

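Over 34 named differences and 24 settings, 789 of 812 values kept their direction and side of the threshold. Most were named for being among the largest calls in these data. The share therefore does not measure how stable the Rab calls are. Some settings also left out an array of a group not in the comparison. After cyclic loess, 16 of the 28 higher and 11 of the 13 lower calls were kept in Ducts. In yDucts 18 of 29 and 10 of 11 were kept. Number of Rab genes higher in Ducts than in Acini: 28 as reported, 18 after cyclic loess, and 28 to 30 with 1 array left out. Number lower in yDucts than in Acini: 11 as reported, 17 after cyclic loess and 11 to 12 with 1 array left out. Of all tested genes, 42.7% were higher in Ducts as reported and 25.8% after cyclic loess. Those lower in yDucts were 32.6% and 36.1%. The median of all tested genes in Ducts minus Acini moved from 0.21 to -0.15 after quantile normalization, -0.18 after cyclic loess and 0.42 after centring. The share of higher calls among called Rab genes was 68.3% as reported and 60.5%, 50% and 73.3% in turn. Between the organoid groups, 1 gene higher and 1 lower as reported became 3 higher with the mean of all probe sets, 2 higher with the most variable probe set, 14 higher and 9 lower with array weights, 0 higher and 2 lower without Ducts C and D, and 6 higher and 3 lower without Ducts A and B. Of all tested genes, 21% were higher and 20.2% lower with array weights, and 8.65% and 5.94% without Ducts A and B. With 1 array left out, 0 to 2 were higher (0 without yDucts A, 2 without Ducts B) and 1 lower. Rab27b in Ducts was -0.29 after quantile normalization, -0.42 after cyclic loess, -0.21 with the mean of probe sets and -1.49 with the most variable set. In yDucts it was -0.79, -0.90, -0.44 and -1.24 in turn, and -0.04 (without Acini D) to 0.29 with 1 array left out. Rab3b in Ducts was 0.04 after centring, 0.018 with array weights and 0.03 without Ducts A and B. The cause was not tested. With the letter as a replicate block the counts remained 28 and 13, 29 and 11, and 1 and 1. Same-letter arrays of different groups had correlations of -0.35 to 0.13, over 0.1 in 2 of 12 pairs, so the letters were not taken to pair the samples.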
